A study of Mus musculus with 40 samples.

Results

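Hox genes encode homeodomain transcription factors, which give cells along the axis of the embryo their position from head to tail. They lie in clusters in which genes at the 3′ end, of low paralog number, are switched on earlier and nearer the head than genes at the 5′ end, and retinoic acid, WNT and FGF signals drive that opening in sequence. In the hindbrain and spinal cord the combination of Hox proteins in a cell sets which motor column and pool a motor neuron joins, and astrocytes of the cord keep Hox expression from their progenitors. The genes described here were chosen by symbol: every gene of the count table named Hox, a cluster letter from a to d and a paralog number, which gave 39 of 55487 genes. The a cluster on chromosome 6 held 11 of them, the b cluster on chromosome 11 held 10, the c cluster on chromosome 15 held 9 and the d cluster on chromosome 2 held 9.

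The study differentiated mouse embryonic stem (ES) cells into astrocyte-like cells and motor neurons with retinoic acid and smoothened agonist, and asked by RNA sequencing what both cell types express after co-culture on stimulated astrocytes. ES-astrocytes received 1 of 5 treatments for 24 h, and ES-motor neurons were then plated on top. The treatments were control, IL-1α with TNF-α, C1q with C5, IL-1β with IL-6, and TGF-β2. Each library was made from about 200 cells sorted after co-culture, and motor neurons were recognised by the eGFP that the Hb9 promoter drives. Each treatment had 4 biological replicates, A to D, of each cell type, so 20 libraries were of ES-astrocytes and the other 20 of ES-motor neurons. All cells came from 1 ES cell line that carries the Hb9 reporter, and a replicate was 1 vial of those cells, so the p-values below measure the spread between vials of that line. By the plate index given with the data, control and IL-1α with TNF-α libraries shared plate 1, and the other 3 treatments shared plate 2. That index is named for the biological replicate, and the step at which these plates were used is not stated. For these 3 treatments the treatment and the plate cannot be told apart in a comparison with control. The cell types carried different index primers on both plates, so cell type and primer cannot be told apart either.

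Total counts ran from 1510823 to 16054290 in ES-astrocytes with a median of 4670241.5, and from 6557 to 19717324 in ES-motor neurons with a median of 1213482. Of the ES-motor neuron libraries 9 held under 20% of the median over all 40 libraries: the 4 given IL-1α with TNF-α, replicate A of C1q with C5, replicate C of control, replicates B and D of IL-1β with IL-6, and replicate A of TGF-β2. Replicate A of C1q with C5 was the shallowest, with 6557 counts and 0 for any Hox gene. Levels below are counts per 1e+06 (CPM) after scaling library sizes over all 40 libraries. A floor of 3 counts corresponded to 0.230 to 2.04 CPM in single ES-astrocyte libraries and to 0.153 to 202 CPM in single ES-motor neuron libraries, so a 0 in a shallow library says little. Intervals and floors of this kind cover counting error only, since reads were counted without molecular identifiers.

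The labelled cell types were checked against marker genes. In ES-motor neurons 10 of 14 motor neuron markers were higher than in ES-astrocytes and none lower, among them Mnx1, which encodes Hb9, at a mean of 1052 against 3.41 CPM. The motor neuron markers still summed to 1527 to 3477 CPM in the ES-astrocyte libraries, with a median of 2297, against 3906 to 12243 CPM with a median of 8880.3 in ES-motor neurons. Their most abundant gene in both was Stmn2, a microtubule regulator of growing axons. Of 14 astrocyte markers, Fabp7, a fatty acid binding protein of radial glia, was the most abundant in ES-astrocytes at 1426 ± 597 CPM (SD, n = 20) against 24.4 ± 16.6 CPM in ES-motor neurons (n = 20). Of the 9 that were tested, Sox9 was higher and 6 were lower in ES-motor neurons, with the cell adhesion receptor Cd44 and the gap junction gene Gja1 among the 6. The defining markers Aqp4, Gfap and Aldh1l1 had 0 counts in ES-astrocytes and S100b had 4, so the cells are named here as the labels name them. Fibroblast and mesenchyme markers summed to 139.9 to 1309 CPM in ES-astrocytes with a median of 508, and to 0 to 22.6 CPM in ES-motor neurons. All 6 of the 14 that could be tested were lower in ES-motor neurons, led by Dcn, a matrix proteoglycan, and Acta2, smooth muscle actin, the most abundant. Of 10 markers of neural progenitors 9 were tested and 7 were lower in ES-motor neurons, with Top2a, an enzyme of dividing cells, at 417 against 3.47 CPM. Neural crest markers gave 1 lower gene of 3 tested, Ets1, and markers of the oligodendrocyte lineage and of microglia had 1 tested gene each, Mbp and Csf1r, neither called. Pluripotency genes had 0 of 8 above the filter, and their sum stayed at or below 12.4 CPM in each of the 40 libraries.

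Some ES-astrocyte libraries stood apart from others of their treatment. In control replicate A the astrocyte markers summed to 636 CPM, against 3363, 2629.7 and 3009 CPM in replicates B, C and D. Hoxc5 reached 149 CPM in that library, while replicates B to D stayed at or below 0.180 CPM. In replicate B of IL-1α with TNF-α the astrocyte markers summed to 901 CPM, against 1896 to 2169 CPM in the others, and Hoxc5 was at 108 CPM against 14.5 to 24.7 CPM. In replicate D of C1q with C5 the markers summed to 898 CPM, against 1399 to 3656 CPM in the others.

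Transcripts of the 3′ and middle parts of the clusters were present and those of the 5′ part were all but missing. Of the 39 Hox genes 28 had a count in at least 1 library and 11 had none: Hoxa10, Hoxa11, Hoxa13, Hoxb13, Hoxc8 to Hoxc13, and Hoxd9. Of paralogs 1 to 5, 13 of 15 genes passed the filter on low counts, and of paralogs 6 to 8, 5 of 8 did. None of the 16 genes of paralogs 9 to 13 passed, and 6 of them shared 70 counts over all 40 libraries. The 12 genes of paralogs 10 to 13, which pattern the lumbar and sacral cord and the distal limb, had 4 counts between them. The 18 genes that passed held 99.9% of the 128178 Hox counts, and the other 10 with a count were low: Hoxa6 (19 counts), Hoxa9 (46), Hoxb1 (12), Hoxb9 (20), Hoxc6 (12), Hoxd1 (23) and Hoxd10 to Hoxd13 (1 each). A gene with no count over all 40 libraries lay below 0.0165 CPM, the level of 3 counts in their sum.

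Hoxa5, Hoxb5, Hoxa2 and Hoxb4 had the highest mean levels per length in both cell types. In ES-astrocytes, mean levels in CPM per kb of exon were 86.2 for Hoxb5, 57.1 for Hoxa5, 36.3 for Hoxa2, 35.8 for Hoxb4, 23.5 for Hoxc4 and 21.4 for Hoxa4. In ES-motor neurons, mean levels in CPM per kb were 31.8 for Hoxa5, 25.7 for Hoxb5, 22.1 for Hoxa2, 8.90 for Hoxb4, 8.64 for Hoxa4, 6.81 for Hoxb3 and 6.68 for Hoxc4. The 6 genes named for ES-astrocytes were all among these 7, and each overlapped its neighbour in the order within 1 SD between libraries. Of the other genes of paralogs 4 and 5, Hoxc5 was at 13.1 and Hoxd4 at 1.41 CPM per kb in ES-astrocytes, and at 4.29 and 0.577 CPM per kb in ES-motor neurons. Hoxa5 with its paralog Hoxc5 is needed for phrenic motor neurons, Hoxb5 acts in neural crest and enteric neurons, and Hoxa2 is the selector gene of the second pharyngeal arch. As a share of Hox CPM per kb, paralogs 4 to 5 took a median of 68.0% in ES-astrocytes against 57.6% in ES-motor neurons. Paralogs 1 to 3 took 24.8% and 40.9%, and paralogs 6 to 8 took 6.48% and 0.615%. By cluster, the median share of b was 51.3% in ES-astrocytes against 38.0% in ES-motor neurons, and that of a was 36.3% and 50.7%. The c and d clusters followed with 9.69% and 2.35% in ES-astrocytes, against 5.92% and 3.60% in ES-motor neurons.

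**Figure D1:**
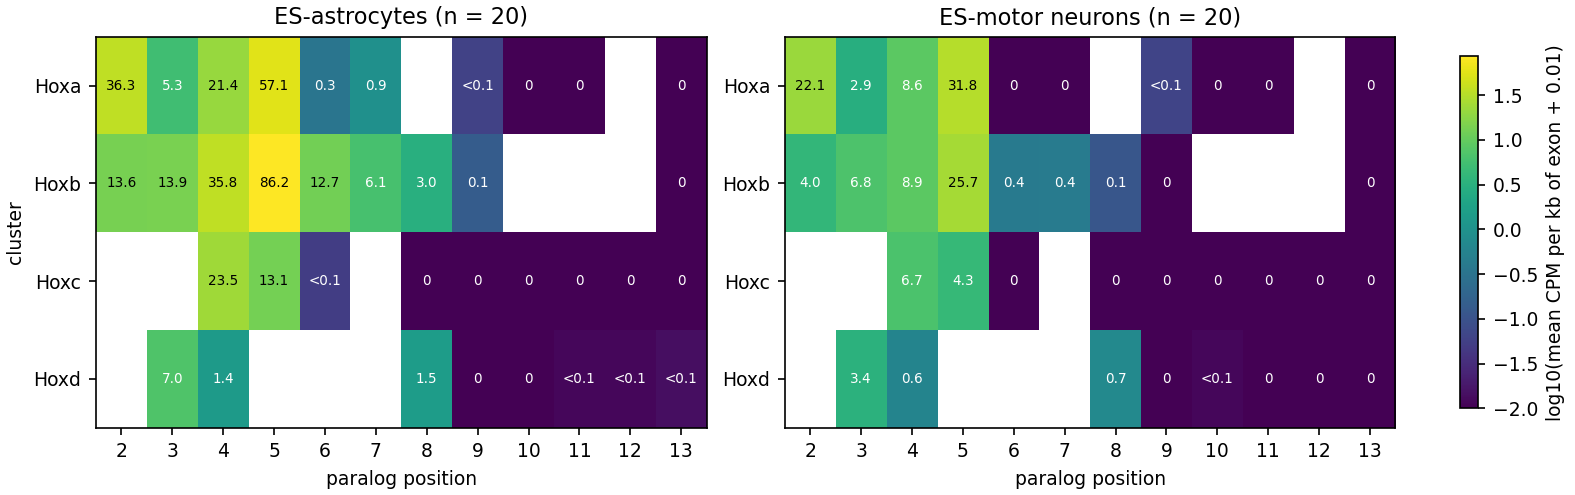
Mean level of each Hox gene of paralogs 2 to 13 over 20 ES-astrocyte libraries (left) and 20 ES-motor neuron libraries (right), with clusters as lines and paralog position along the axis, printed as CPM per kb of exon and coloured on a log10 scale after adding 0.01; white cells have no gene. Paralog 5 of clusters a and b holds the highest levels, Hoxb5 at 86.2 in ES-astrocytes and Hoxa5 at 31.8 in ES-motor neurons, and paralogs 10 to 13 are at or near 0.

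Some counts cannot be assigned to 1 gene with certainty, because the strand setting of the authors' counting is not given in the sources used here and several Hox genes overlap others in the annotation. Hoxb3 shared 52.9% and Hoxb2 27.3% of its exon length with the antisense gene Hoxb3os, Hoxa7 shared 20.4% with Hoxaas3, and Hoxd3 and Hoxd4 shared 62.8% and 52.3% with genes that include each other. Hoxa3 shared 27.1%, Hoxa4 16.0% and Hoxa2 15.0%, with the antisense gene Gm29430 for Hoxa4, Gm28308 on the same strand for Hoxa2, and genes on both strands for Hoxa3. Hoxc5 shared 5.4% with Hoxc10 and Hoxb5 3.6% with Hoxb5os. Hoxa5, Hoxb4, Hoxc4, Hoxb6, Hoxb7 and Hoxb8 shared no exon with another gene.

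Hox genes were lower in ES-motor neurons than in ES-astrocytes across the 5 treatments, in a fit that also held treatment. Of the 18 tested, 11 were called, which required an adjusted p of at most 0.05 and a log2 fold change beyond 1 in size, and all 11 were lower in ES-motor neurons. Over the 13227 genes tested, 14.9% were called, and 1461 genes, or 11% of those tested, were called lower. The median log2 fold change was −1.68 over the 18 Hox genes and −0.21 over all genes tested, and all 18 were below 0 with TMM or RLE scaling, in DESeq2 and without the shallow libraries. The calls comprised 7 of 7 genes in the b cluster, 2 of 6 in a, 2 of 2 in c and 0 of 3 in d. A gene with counts in ES-astrocytes alone can pass the filter on low counts only with a negative log2 fold change. This bears on 4 of the 11 calls, Hoxb6, Hoxb7, Hoxb8 and Hoxa7, which had 30, 67, 21 and 0 counts over all ES-motor neuron libraries, and so on the counts of calls and signs above. In these bulk samples fewer cells that express a gene and less RNA per cell cannot be told apart.

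Among paralogs 4 and 5, Hoxb5 ranged over 49.6 to 539.7 CPM with a median of 213 in ES-astrocytes, while ES-motor neurons ranged over 0 to 205 CPM with a median of 59.8. The ranges overlapped, while the ES-motor neuron median lay near the lowest ES-astrocyte library. Its log2 fold change was −1.77 (SE 0.23; edgeR adjusted p = 4.53e-08). Hoxb4, expressed from the caudal hindbrain down the cord, ranged over 13.95 to 156 CPM with a median of 92.1 in ES-astrocytes, while ES-motor neurons ranged over 0 to 95.1 CPM with a median of 16.96. Most ES-motor neuron libraries were below most ES-astrocyte libraries, again with overlap, and the log2 fold change was −2.27 (SE 0.31; edgeR adjusted p = 9.78e-08). Hoxa5 ranged over 46.8 to 235 CPM with a median of 88.0 in ES-astrocytes, while ES-motor neurons ranged over 0 to 273 CPM with a median of 32.9. Here the highest library of all was an ES-motor neuron one, given TGF-β2, and the log2 fold change was −1.30 (SE 0.24; edgeR adjusted p = 4.37e-05). Hoxc4 ranged over 4.99 to 194 CPM with a median of 45.6 in ES-astrocytes, while ES-motor neurons ranged over 0 to 69.6 CPM with a median of 13.6. Its ranges overlapped too, and it differed by −2.02 on the log2 scale (SE 0.39; edgeR adjusted p = 0.000106). Hoxa4, a paralog that patterns cervical vertebrae, had a log2 fold change of −1.32 and was not called, but DESeq2 called it (adjusted p = 0.0400), as did edgeR without IL-1β with IL-6 replicate A (−1.52, adjusted p = 0.0426) or control replicate D (−1.52, adjusted p = 0.0463) of ES-motor neurons.

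Hoxc5 was uneven among replicates. It ranged over 0 to 149 CPM with a median of 23.8 in ES-astrocytes, while ES-motor neurons ranged over 0 to 87.0 CPM with a median of 0, and 16 of 20 ES-astrocyte libraries and 6 of 20 ES-motor neuron libraries were above 10 CPM. The log2 fold change was −2.71 (SE 0.84; edgeR adjusted p = 0.0175). Without ES-astrocyte control replicate A it was −1.74 (edgeR adjusted p = 0.0547), without the shallow libraries −2.75 (edgeR adjusted p = 0.0885), and without ES-motor neuron replicate A of IL-1α with TNF-α −3.35 (edgeR adjusted p = 0.00478).

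Of the genes of paralogs 6 to 8, which mark the trunk, 4 of 5 tested were called, against 14.9% of all genes tested. Each of the 4 had a median of 0 CPM in ES-motor neurons. As given above, a gene with counts in ES-astrocytes alone can pass the filter only with a negative log2 fold change. This bears on all 4, so their number is not read as a result for these paralogs. Hoxb6, Hoxb8 and Hoxb7 had 30, 21 and 67 counts in ES-motor neurons against 2674, 995 and 1104 in ES-astrocytes, so the size of their differences is uncertain. Hoxb6, a gene of the trunk and forelimb mesoderm, ranged over 0 to 112 CPM with a median of 13.7 in ES-astrocytes, while ES-motor neurons ranged over 0 to 5.90 CPM with a median of 0. Counts were present in 18 of the ES-astrocyte and 5 of the ES-motor neuron libraries, and the log2 fold change was −5.77 (SE 0.81; edgeR adjusted p = 1.95e-07). Hoxb8, which acts in the dorsal spinal cord and in myeloid cells, ranged over 0.153 to 33.7 CPM with a median of 5.54 in ES-astrocytes, while ES-motor neurons ranged over 0 to 4.13 CPM with a median of 0. All 20 ES-astrocyte libraries and 4 of 20 ES-motor neuron libraries held counts for it, with a log2 fold change of −5.22 (SE 0.82; edgeR adjusted p = 2.37e-06). Hoxb7 ranged over 0 to 24.7 CPM with a median of 8.28 in ES-astrocytes, while ES-motor neurons ranged over 0 to 5.13 CPM with a median of 0. With counts in 15 of 20 and 4 of 20 libraries, it differed by −4.36 on the log2 scale (SE 0.99; edgeR adjusted p = 0.00077), and by −4.96 (edgeR adjusted p = 0.000308) without TGF-β2 replicate D of ES-motor neurons. DESeq2 gave smaller differences, of −4.97 for Hoxb6, −4.002 for Hoxb8 and −3.21 for Hoxb7, with calls for these 3.

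Hoxa7 had 429 counts in 9 ES-astrocyte libraries, up to 18.0 CPM, and 0 in ES-motor neurons. Against a floor of 3 counts over all 20 libraries, the ES-motor neuron level was at least 79.1-fold lower (edgeR adjusted p = 0.00327), and DESeq2 did not call it (adjusted p = 0.407). Replicate C of IL-1β with IL-6 held 232 of the counts, and without it the bound was 40.8-fold. Hoxd8 was the exception among paralogs 6 to 8, at 0 to 20.8 CPM with a median of 0.697 in ES-astrocytes against 0 to 16.4 CPM with a median of 0 in ES-motor neurons. Counts were spread over 13 and 7 libraries, and its log2 fold change of −1.03 was not called and was −1.86 without control replicate A of ES-motor neurons. Hoxa6, Hoxb9 and Hoxc6 had 19, 20 and 12 counts, all of them from ES-astrocytes and with no test. Replicate B of IL-1α with TNF-α held 15 of those for Hoxa6, and replicate C of TGF-β2 held 13 of those for Hoxb9. Fibroblast and mesenchyme markers, given above by library range, also separated the cell types, with Col1a1, Col1a2, Col3a1, Pdgfra and Pdgfrb at 3 counts or fewer in ES-motor neurons, and their part in the difference was not tested.

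Of paralogs 1 to 3, Hoxb2 and Hoxb3 were called. Hoxb2, which acts in hindbrain segments that give rise to facial motor neurons, ranged over 0 to 131 CPM with a median of 42.0 in ES-astrocytes, while ES-motor neurons ranged over 0 to 39.9 CPM with a median of 11.8. With overlapping ranges the log2 fold change was −1.60 (SE 0.52; edgeR adjusted p = 0.0231), but without ES-astrocyte TGF-β2 replicate A it was −1.40 (edgeR adjusted p = 0.0598) and without the shallow libraries −1.40 (edgeR adjusted p = 0.192). Hoxb3 ranged over 18.2 to 116 CPM with a median of 55.7 in ES-astrocytes, while ES-motor neurons ranged over 0 to 157 CPM with a median of 17.2. The groups overlapped, and it differed by −1.37 on the log2 scale (SE 0.33; edgeR adjusted p = 0.00176). Hoxa2, at −0.64, and Hoxa3, a gene of the third pharyngeal arch, at −0.91, stayed inside the fold threshold. Hoxd3, which patterns the first cervical vertebra, lay at the threshold with a log2 fold change of −0.998 (edgeR adjusted p = 0.0342). DESeq2 called it (−1.03, adjusted p = 0.00598), as did edgeR with RLE scaling (−1.09, adjusted p = 0.0214). It was also called, at −1.01 to −1.09 on the log2 scale, on leaving out any 1 of 16 libraries. Without the shallow libraries it fell to −0.62 (edgeR adjusted p = 0.387). The 16 were, in ES-astrocytes, replicates B, C and D of control, A and D of IL-1α with TNF-α, B, C and D of IL-1β with IL-6, and C of TGF-β2, and in ES-motor neurons replicates A and D of control, C of IL-1α with TNF-α, A, B and C of IL-1β with IL-6, and D of TGF-β2. Hoxd4, which shares exons with Hoxd3, had a log2 fold change of −1.22 and was not called.

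**Figure D2:**
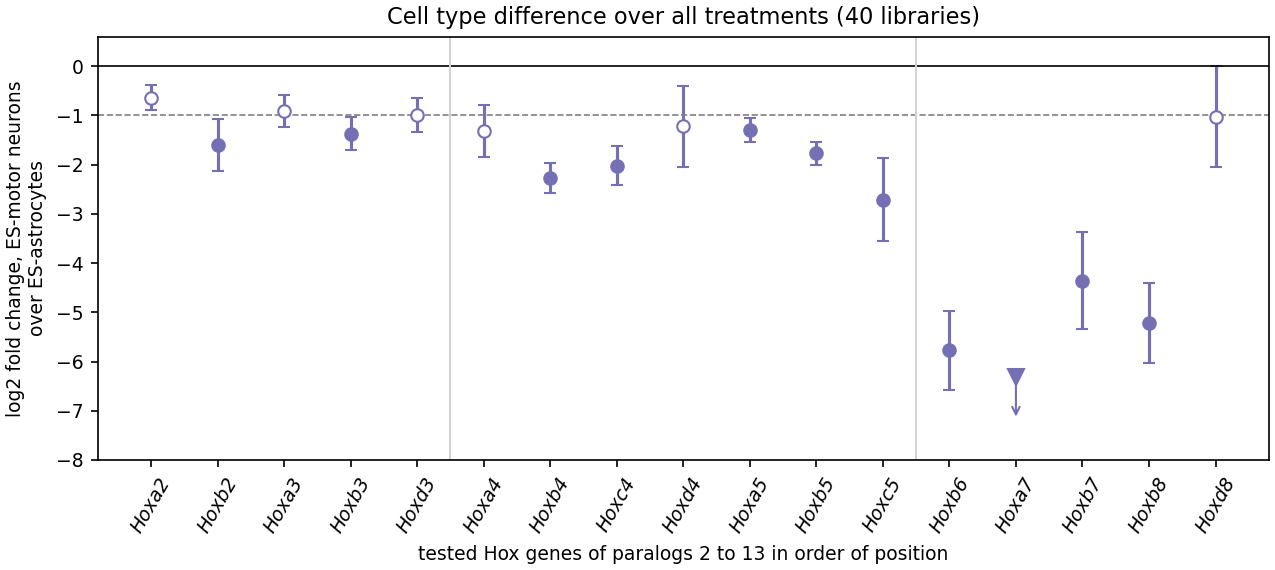
Log2 fold change of each tested Hox gene of paralogs 2 to 13, ES-motor neurons against ES-astrocytes over all 5 treatments (20 libraries each), in order of paralog position, with bars of 1 SE, filled points for the genes called and a dashed line at −1. All of them lie below 0 with TMM or RLE scaling, in DESeq2 and without the shallow libraries, from −0.64 for Hoxa2 to −5.77 for Hoxb6, and the triangle with an arrow stands for Hoxa7, at its bound of at least 79.1-fold lower, which was 40.8-fold without 1 ES-astrocyte library.

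Within single treatments, with 4 libraries of each cell type, fewer Hox genes were called and those called were all lower in ES-motor neurons. These 5 comparisons use the same libraries as the comparison over all treatments. In control, edgeR called 0 of 13 Hox genes (2.24% of all genes). At an unadjusted edgeR p under 0.05 were 4 of the 13, and 10.6% of all genes. DESeq2 called 4 (767 of 12368 genes of any kind), 1 of them, Hoxb6, outside the 13. Without ES-astrocyte control replicate A edgeR called 2. With IL-1α and TNF-α 1 of 12 was called (2.82%), with C1q and C5 2 of 9 (3.15%), with IL-1β and IL-6 1 of 12 (2.12%) and with TGF-β2 2 of 15 (3.62%). The Hox genes below 0 were all those tested in control, IL-1α with TNF-α and C1q with C5, apart from Hoxd3 and Hoxd4 in control without the shallow libraries. With IL-1β and IL-6 Hoxb2 was above 0, and without the shallow libraries Hoxd3 too. With TGF-β2 Hoxa5 and Hoxb3 were above 0, and without the shallow libraries Hoxa2 was in their place. Hoxa5 with TGF-β2 was at 0.21 on the log2 scale, and at −0.032 without ES-motor neuron TGF-β2 replicate A.

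With IL-1α and TNF-α, Hoxb5 was 254, 419, 289 and 207 CPM in ES-astrocytes, while in ES-motor neurons it was 94.4, 17.2, 66.9 and 8.65 CPM. All 4 ES-motor neuron libraries were below all ES-astrocyte libraries. The log2 fold change was −2.54 (SE 0.58; edgeR adjusted p = 0.0276). The call was lost without replicate A (edgeR adjusted p = 0.0608), B (0.0721) or C (0.0844) of ES-astrocytes, or B (0.120), C (0.0730) or D (0.0743) of ES-motor neurons. With replicate letter as a block it was lost too (edgeR adjusted p = 0.0521). Without ES-motor neuron replicate A 2 genes were called. With C1q and C5, Hoxb4 was 128, 48.4, 77.4 and 50.2 CPM in ES-astrocytes, while in ES-motor neurons it was 0, 11.1, 6.14 and 2.11 CPM. Replicate A of these ES-motor neurons, where 3 counts were worth 202 CPM, could not show such levels, and replicates B, C and D lay below all ES-astrocyte libraries. The log2 fold change was −3.62 (SE 0.76; edgeR adjusted p = 0.00972), −3.15 (edgeR adjusted p = 0.0616) without ES-motor neuron replicate D and −4.30 without replicate B, and the call held without replicate A. Hoxc4 was 46.4, 111, 38.0 and 57.0 CPM in ES-astrocytes, while in ES-motor neurons it was 0, 1.59, 0 and 5.99 CPM in the same treatment. Again replicates B, C and D of ES-motor neurons lay below all ES-astrocyte libraries, and replicate A could not show such levels. It differed by −4.49 (SE 0.95; edgeR adjusted p = 0.00972), by −4.14 (edgeR adjusted p = 0.0660) without ES-astrocyte replicate B and by −6.15 without ES-motor neuron replicate D, and the call held without replicate A. Without ES-astrocyte replicate C, 4 genes were called there.

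With IL-1β and IL-6, Hoxb4 was 145, 57.4, 133 and 84.7 CPM in ES-astrocytes, while in ES-motor neurons it was 6.58, 22.6, 9.56 and 20.0 CPM. The ES-motor neuron libraries were the lower ones throughout. The log2 fold change was −3.12 (SE 0.66; edgeR adjusted p = 0.0227), and the call was lost without replicate A (edgeR adjusted p = 0.0780) or C (0.0654) of ES-astrocytes, A (0.0541) or C (0.0965) of ES-motor neurons, or the shallow libraries (0.0780). With replicate letter as a block it was lost as well (edgeR adjusted p = 0.122). With TGF-β2, Hoxb6 was 112, 45.1, 36.0 and 26.8 CPM in ES-astrocytes, while in ES-motor neurons it was 4.13, 2.05, 0 and 1.71 CPM. Here too the groups did not overlap. It differed by −5.01 on the log2 scale (edgeR adjusted p = 0.00887), and leaving out ES-astrocyte replicate A ended the call (−4.43, edgeR adjusted p = 0.0688), as did 1 fit of all 40 libraries (0.0890). Hoxb5 was 539.7, 376, 398 and 485 CPM in ES-astrocytes, while in ES-motor neurons it was 141, 187, 194 and 205 CPM with TGF-β2. The lowest ES-astrocyte library was above the highest ES-motor neuron library. Its log2 fold change was −1.24 (SE 0.30; edgeR adjusted p = 0.0312). That call was lost without replicate A (edgeR adjusted p = 0.0588), B (0.0709) or D (0.0629) of ES-astrocytes, or A (0.0943), B (0.0615), C (0.103) or D (0.0554) of ES-motor neurons. It was also lost with no filter on low counts (0.0624), with all 40 libraries in 1 fit (0.163) and with replicate letter as a block (0.0757).

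Whether the difference between the cell types varied with treatment was tested by the interaction of both over all 40 libraries. edgeR called 0 of 13227 genes (0.0%), with 808 at an unadjusted p under 0.05, and DESeq2 called 1, not a Hox gene. Of the 18 Hox genes 4 were at an unadjusted p under 0.05: Hoxa5, Hoxb3, Hoxb4 and Hoxc5. The smallest edgeR adjusted p among them was 0.733, for Hoxa5, so the single-treatment differences above are not shown to differ between treatments.

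Each stimulus was then set against control within each cell type, and the 4 comparisons of a cell type share its 4 control libraries. In ES-astrocytes no Hox gene was called with any stimulus, of 15 tested with IL-1α and TNF-α, 15 with C1q and C5, 14 with IL-1β and IL-6 and 15 with TGF-β2. edgeR called 0 genes of any kind there (0.0% each), with 93, 106, 119 and 136 genes at an unadjusted p under 0.05, of which 1, 0, 0 and 3 were Hox genes. DESeq2 called 25, 40, 56 and 58 genes, and among them 0, 0, 1 and 3 Hox genes. In ES-motor neurons edgeR called 0 genes with IL-1α and TNF-α, with C1q and C5 and with IL-1β and IL-6 (0.0% each), of 4479, 7348 and 8327 tested. At an unadjusted p under 0.05 there were 143, 322 and 98 genes, with no Hox gene among the 2, 8 and 10 tested, and DESeq2 called 1, 0 and 1 genes, none of them Hox. TGF-β2 gave 1 called gene of 7947 in ES-motor neurons (0.0126%), and that gene was Hoxa5, 1 of 10 Hox genes tested. DESeq2 called 17 genes there, 3 of them Hox.

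Hoxa5 was higher in ES-motor neurons co-cultured with TGF-β2 treated ES-astrocytes than in those of the control. The gene lies at chr6:52201754-52204587 on the minus strand (GRCm38, GENCODE annotation). It was 273, 110.1, 119.9 and 233 CPM with TGF-β2 and 20.8, 19.03, 19.2 and 28.6 CPM in control. Every TGF-β2 library was above every control library. Hoxa5 rose by 3.05 on the log2 scale (SE 0.44; edgeR adjusted p = 0.0103). With the other stimuli it was nearer the control, at 59.0, 30.2, 13.4 and 43.3 CPM with IL-1α and TNF-α. It was 0, 33.4, 19.4 and 22.5 CPM with C1q and C5, and 37.2, 45.1, 32.5 and 33.4 CPM with IL-1β and IL-6. No library of these 3 treatments reached the lowest TGF-β2 library, but replicate A of C1q with C5 was too shallow to show such a level. The call was lost without TGF-β2 replicate A (log2 2.78, edgeR adjusted p = 0.0556) or D (2.90, 0.0793) or control replicate C (3.03, 0.0647), and without the shallow libraries (2.76, 0.362).

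Hoxb5 was 141, 187, 194 and 205 CPM in ES-motor neurons with TGF-β2 and 15.4, 58.4, 15.4 and 38.6 CPM in control. The TGF-β2 libraries were all above the control libraries, but with a log2 fold change of 2.42 (SE 0.44; edgeR adjusted p = 0.0584) the gene was not called. DESeq2 called it (adjusted p = 0.000199), as did edgeR with no filter on low counts (0.00406) and without control replicate B (2.87, 0.0473). Hoxc4 was 41.3, 69.6, 34.4 and 24.0 CPM with TGF-β2 and 11.7, 15.5, 0 and 9.06 CPM in control. Hoxb4 was 95.1, 31.8, 48.4 and 36.8 CPM with TGF-β2 and 26.2, 16.4, 11.5 and 16.7 CPM in control. Hoxb3 was 157, 38.1, 39.3 and 60.7 CPM with TGF-β2 and 30.7, 12.4, 15.4 and 17.2 CPM in control. None of these 3 was called, at log2 fold changes of 2.07, 1.51 and 1.92, and Hoxb3 was at 1.25 without TGF-β2 replicate A. Their groups did not overlap. The share of all genes without overlap was not counted, here or in the other comparisons, so a lack of overlap is not read as a result. Hoxc5, which did not pass the filter there, was 4.13, 87.0, 51.2 and 41.9 CPM with TGF-β2 and 1.81, 0, 0 and 0 CPM in control, and DESeq2 and edgeR with no filter called it. The number of Hox genes called was 2 without control replicate A or B.

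The Hox genes summed to 815, 724, 611 and 799 CPM in ES-motor neurons with TGF-β2 and to 234, 232, 146 and 239 CPM in control. No other ES-motor neuron library exceeded 342 CPM. Paralogs 4 to 5 took 74.1% to 81.9% of Hox CPM per kb in the TGF-β2 libraries and 40.1% to 60.4% in control, and with IL-1α and TNF-α, where all 4 libraries were shallow, 54.3% to 79.7%. In ES-astrocytes the Hox genes summed to 1748, 1185, 1078 and 1350.2 CPM with TGF-β2 and to 831, 602, 537 and 768 CPM in control. All 4 were above the control libraries.

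**Figure D3:**
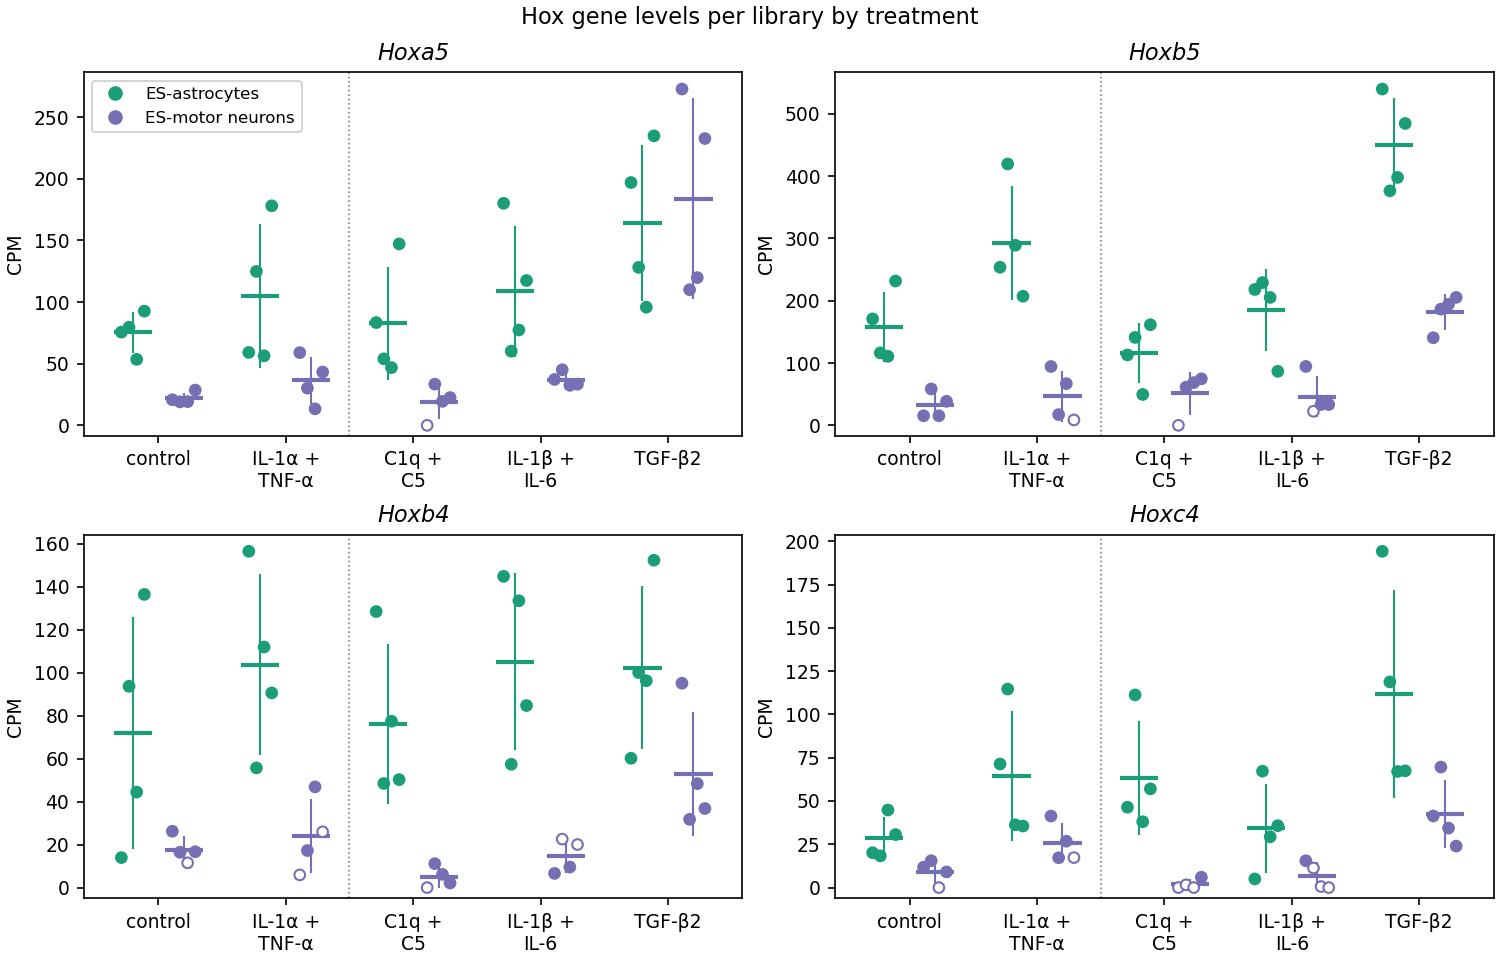
CPM of Hoxa5, Hoxb5, Hoxb4 and Hoxc4 in each library by cell type and treatment, with 1 point a library, open at 3 counts or fewer, a bar at the mean of 4, a line of 1 SD each way, and a dotted line between plates 1 and 2. In ES-motor neurons the TGF-β2 libraries lie above all control libraries for each of the 4 genes, and edgeR called only Hoxa5. The share of all genes with such a separation was not counted.

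In ES-astrocytes Hoxb5, Hoxc4 and Hoxa5 stood higher with TGF-β2 than in control without passing the edgeR test. Hoxb5 was 539.7, 376, 398 and 485 CPM with TGF-β2 and 171, 116, 111 and 232 CPM in control. The groups did not overlap, and at a log2 fold change of 1.57 DESeq2 called the gene (adjusted p = 0.00846) and edgeR did not. Hoxc4 was 194, 119, 67.0 and 67.4 CPM with TGF-β2 and 20.1, 18.3, 44.8 and 30.6 CPM in control, with a log2 fold change of 2.03 that DESeq2 called (adjusted p = 0.0395) and edgeR did not. Hoxa5 was 197, 128, 95.9 and 235 CPM with TGF-β2 and 75.6, 79.6, 53.5 and 92.7 CPM in control, a log2 fold change of 1.17 that neither called. The difference between the cell types in these responses enters the interaction test, where edgeR gave adjusted p = 0.733 for Hoxa5. Astrocyte markers summed to 1449, 1673, 1522 and 1592 CPM in ES-astrocytes with TGF-β2, and to 636, 3363, 2629.7 and 3009 CPM in control. Control replicate A lay below all TGF-β2 libraries and replicates B to D above them. Fabp7 was at a mean of 989 CPM with TGF-β2 against 1773 CPM in control. The part of these markers in the Hox levels was not tested.

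Since TGF-β2 and control were on different plates, TGF-β2 was also compared with the mean of the other stimuli of plate 2, a comparison added after the data were seen. In ES-motor neurons 3 of 8315 genes were called (0.0361%), 1 of them among 11 Hox genes. Hoxa5 was higher by 2.63 on the log2 scale (SE 0.40; edgeR adjusted p = 0.00365). The others were Nfia, a transcription factor of gliogenesis, at 2.58 (edgeR adjusted p = 0.0148) and Dok5, an adaptor of receptor tyrosine kinases, at 3.73 (edgeR adjusted p = 0.0360). Without replicate A of C1q with C5 edgeR called 2 of 9099 genes, 1 of them Hox, and Hoxa5 was at 2.61 (edgeR adjusted p = 0.00603). Without all shallow libraries edgeR called 0 of 10966 genes (0.0%), with 328 at an unadjusted p under 0.05, and Hoxa5 was at 2.39 (edgeR adjusted p = 0.377). Within the plate Hoxb5 was at 1.67 (edgeR adjusted p = 0.199), Hoxc4 at 3.25 (0.477) and Hoxb4 at 2.58 (0.410) in ES-motor neurons. In ES-astrocytes edgeR called 0 of 11876 genes (0.0%), with 318 at an unadjusted p under 0.05, and Hoxb5 was at 1.63 (edgeR adjusted p = 0.789). Hoxc4 was at 1.28 and Hoxa5 at 0.808 in ES-astrocytes within the plate, both smaller than against control. DESeq2 was not run on these comparisons.

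The sum of the astrocyte markers stood above every control library in 3 of the 4 ES-motor neuron libraries with TGF-β2, with Sox9 and Nfia as large parts of it. The 14 markers summed to 1451, 415, 695 and 994 CPM with TGF-β2 and to 679, 272, 269 and 607 CPM in control. Sox9, a glial and progenitor transcription factor, was their most abundant gene over all ES-motor neuron libraries, at 707, 189, 266 and 279 CPM with TGF-β2 and 502, 145, 181 and 329 CPM in control. Nfia was 529, 152, 238 and 582 CPM with TGF-β2 and 102, 51.7, 11.5 and 194 CPM in control. Over all treatments Sox9 was called higher in ES-motor neurons, at a mean of 265 against 78.8 CPM in ES-astrocytes. Nfia and Nfib were not called between the cell types (log2 −0.49 and −0.64). These genes thus did not set ES-astrocytes apart, and the sum is no measure of ES-astrocyte content. Of the defining markers, Aqp4, Gfap, Aldh1l1, Slc1a3 and Aldoc were at 0 in all 4 TGF-β2 libraries, S100b had 1 count, and Fabp7, the most abundant marker of ES-astrocytes, was 20.7, 20.5, 66.6 and 14.5 CPM against 28.9, 24.9, 3.84 and 20.5 CPM in control. Means of 4 libraries were higher with TGF-β2 than in control for Slc1a2 (34.9 against 17.3 CPM) and Nfib (79.0 against 38.1 CPM), with overlap between libraries. Cd44 was 0, 3.85, 16.1 and 5.13 CPM with TGF-β2 and 0, 3.32, 0 and 0 CPM in control. Fgfr3 and Gja1 had 7 and 4 counts with TGF-β2, each in 1 library, and 0 in control. The 4 TGF-β2 libraries fell in the same order by marker sum and by Hoxa5, A above D, C and B, and in replicate B, with Hoxa5 at 110.1 CPM, the marker sum lay within the control range. Markers of neural progenitors were lower with TGF-β2, at a sum of 426, 374, 498 and 384 CPM against 601, 559, 668 and 565 CPM in control, with no overlap. The part of these markers in the Hoxa5 result was not tested.

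Genes that act with or on Hox genes were compared between the cell types over all treatments, where 14.9% of all genes tested were called. The TALE homeodomain proteins, which bind DNA together with Hox proteins, had 9 of 9 genes tested. Pbx3 and Meis2, at log2 fold changes of 0.83 and 0.72, stayed inside the fold threshold, and the median of the list was 0.41. Of the retinoic acid pathway 14 of 23 genes were tested, none was called higher and 2 were called lower, the binding proteins Crabp1 (log2 −4.60) and Crabp2 (−1.17), with a list median of −0.15. Such a count is near the share over all genes. Of 16 upstream regulators 15 were in the table and 8 were tested. Nr2f1, Nr2f2 and Zfp503 were higher, the first 2 being nuclear receptors at log2 2.51 and 3.61, Gbx2 and Zfp703 were lower, and the median was 0.19. Cdx1, Cdx2 and Cdx4, which activate trunk Hox genes, had 3 counts or fewer in either cell type.

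Polycomb and Trithorax genes, which keep Hox clusters silent or active, were all 23 tested. Ezh2 (log2 −1.41), the histone methyltransferase of Polycomb repressive complex 2, Eed (−1.47) of the same complex and Phc2 (−1.26) of Polycomb repressive complex 1 were lower in ES-motor neurons, none was higher, and the median was −0.39. These 3 calls of 23 are also near the share over all genes. Genes of the forebrain and midbrain, regions that lack Hox expression, had 2 of 15 tested. Lmx1a was higher, at a mean of 5.39 against 0.664 CPM, En1 was lower, at 0.181 against 2.51 CPM, and Otx1 and Otx2 had 3 counts or fewer in either cell type. Genes of the motor columns, among which are targets of Hox proteins, had 18 of 23 tested. Isl1, Isl2, Mnx1 and Ret were higher, with Isl1 at a mean of 235 against 25.1 CPM, Lhx1 and Etv1 were among the lower genes, and the median was 0.03. The median over the 13227 genes tested was −0.21, for comparison with each list.

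Promoter sequences, 250 bases before to 50 after the start of a gene, were taken from RefSeq (build GRCm38.p6), where 22 of the 39 Hox genes had 24 promoters. They were searched on both strands for AGGTCA, the half-site of nuclear receptors such as the retinoic acid receptors, for TGATTNAT, bound by pairs of PBX and Hox proteins, and for CAGACA, found in SMAD sites. AGGTCA was in 7 of the 24 Hox promoters and in 16.3% of all 32851 promoters, TGATTNAT in 2 and 3.22%, and CAGACA in 4 and 21.0%. A match describes letters in the window and no more. Those of 3 genes that stood higher with TGF-β2 and of Hoxb8, the trunk gene with counts in all ES-astrocyte libraries, are printed with matches in capitals, either as spelled above or, as TGACCT for AGGTCA, on the other strand. Hoxa5 lies at chr6:52204538-52204837 on the minus strand, with AGGTCA near the end of the window. Hoxb4 lies at chr11:96318017-96318316 on the plus strand, with TGACCT and CAGACA. Hoxc4 lies at chr15:103034145-103034444 on the plus strand, with TGACCT. Hoxb8 lies at chr11:96281655-96281954 on the plus strand and held none of the 3 motifs.
Hoxa5: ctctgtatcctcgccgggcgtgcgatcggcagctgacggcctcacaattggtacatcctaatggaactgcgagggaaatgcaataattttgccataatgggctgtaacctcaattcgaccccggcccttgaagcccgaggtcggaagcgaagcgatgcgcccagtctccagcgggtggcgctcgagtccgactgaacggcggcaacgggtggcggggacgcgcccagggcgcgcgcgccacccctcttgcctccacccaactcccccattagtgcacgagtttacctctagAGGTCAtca
Hoxb4: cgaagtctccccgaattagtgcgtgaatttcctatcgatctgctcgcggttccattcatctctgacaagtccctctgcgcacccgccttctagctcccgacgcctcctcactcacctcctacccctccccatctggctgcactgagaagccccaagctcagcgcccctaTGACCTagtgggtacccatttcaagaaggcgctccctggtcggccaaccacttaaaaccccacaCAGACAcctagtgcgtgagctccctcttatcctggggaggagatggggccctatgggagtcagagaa
Hoxc4: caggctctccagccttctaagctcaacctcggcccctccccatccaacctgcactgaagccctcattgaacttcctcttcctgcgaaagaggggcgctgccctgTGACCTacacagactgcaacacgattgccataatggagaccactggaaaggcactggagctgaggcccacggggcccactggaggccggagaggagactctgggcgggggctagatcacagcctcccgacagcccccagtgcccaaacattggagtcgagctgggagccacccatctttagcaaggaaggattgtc
Hoxb8: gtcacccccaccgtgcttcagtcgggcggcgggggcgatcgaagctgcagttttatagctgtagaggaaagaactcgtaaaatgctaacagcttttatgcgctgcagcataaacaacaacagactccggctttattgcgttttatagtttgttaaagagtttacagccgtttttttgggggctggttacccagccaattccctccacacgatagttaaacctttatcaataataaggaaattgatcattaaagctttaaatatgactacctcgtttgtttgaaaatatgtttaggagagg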

How the data were processed

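Polyadenylated RNA of about 200 sorted cells a library was measured in 40 libraries. The authors aligned reads with STAR and deposited whole-number counts per gene; the version, genome build, annotation and strand setting were not given in the sources used. Symbols and coordinates are from GENCODE M21 (GRCm38); 260 of 55487 genes, with 0.117% of counts, had no symbol there. Counts were filtered (filterByExpr), scaled (TMM) and tested with edgeR 4.0.16 (quasi-likelihood, R 4.3.3) over all genes, with Benjamini-Hochberg adjustment; a call needed an adjusted p of at most 0.05 and a log2 fold change beyond 1. The interaction needed the adjusted p alone. Alternatives were DESeq2 1.42.0, RLE scaling, no filter, a replicate block, 1 fit of all 40 libraries, and fits without shallow libraries or each library in turn. Tables and plots used Python 3.11.15 (pandas 2.3.3, scipy 1.17.1, matplotlib 3.10.9). Named genes are Hox genes called anywhere, the highest per length and the most 5′ of each cluster with 10 counts in 2 libraries, the paralogs of position 4, and of each other list the 3 of smallest p; others were named after their values were seen. Some genes are not reported here by name. Members and lists were chosen with earlier results of these data known.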

Additional observations from a re-analysis of the deposited data

Results flagged for a closer look

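Of 144 groups of 4 libraries checked, over the 16 named Hox genes and the summed Hox CPM, 26 held a library whose gap to the nearest of the others, as a share of the range of its group, was above the 95% critical value of Dixon for 4 samples, where chance gives about 1 in 20 groups. Many are groups in which 1 library has counts and the others have few or none. All values are CPM.

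Among ES-motor neurons the values were as follows. The summed Hox genes were 146 in control replicate C against 232 to 239 in the others and 0 in C1q with C5 replicate A against 177 to 203 in the others. Hoxa4 was 4.09 in C1q with C5 replicate C against 0 in the others. Hoxb5 was 94.6 in IL-1β with IL-6 replicate A against 22.6 to 33.4 in the others. Hoxb8 was 0.663 in control replicate B against 0 in the others and 4.13 in TGF-β2 replicate A against 0 to 0.428 in the others. Hoxc5 was 47.2 in IL-1α with TNF-α replicate A against 0 in the others. Hoxd4 was 5.99 in C1q with C5 replicate D against 0 in the others, 1.33 in IL-1β with IL-6 replicate A against 0 to 0.199 in the others and 5.99 in TGF-β2 replicate D against 0 to 0.171 in the others. Hoxd8 was 5.42 in control replicate A against 0 to 0.0510 in the others and 0.443 in IL-1β with IL-6 replicate A against 0 in the others.

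Among ES-astrocytes the values were as follows. Hoxa7 was 9.47 in control replicate C against 0 to 0.852 in the others, 3.29 in IL-1α with TNF-α replicate B against 0 to 0.0765 in the others, 18.0 in IL-1β with IL-6 replicate C against 0 in the others and 6.77 in TGF-β2 replicate D against 0 to 0.204 in the others. Hoxa9 was 0.361 in control replicate B against 0 in the others and 0.805 in IL-1β with IL-6 replicate B against 0 in the others. Hoxb5 was 86.7 in IL-1β with IL-6 replicate D against 205 to 229 in the others. Hoxb8 was 33.7 in control replicate A against 2.91 to 6.33 in the others and 0.490 in IL-1β with IL-6 replicate D against 2.96 to 3.40 in the others. Hoxc5 was 149 in control replicate A against 0 to 0.180 in the others and 108 in IL-1α with TNF-α replicate B against 14.5 to 24.7 in the others. Hoxd3 was 56.8 in control replicate A against 15.0 to 18.2 in the others and 52.7 in C1q with C5 replicate D against 30.8 to 32.3 in the others. Hoxd8 was 8.45 in IL-1β with IL-6 replicate B against 0 to 0.907 in the others.

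The interaction test called no Hox gene, so the difference between the cell types is not shown to vary with treatment. There edgeR called 0 of 13227 genes, with 808 at an unadjusted p under 0.05, and DESeq2 called 1, not a Hox gene. In 0 cases did all libraries of both cell types move in opposite directions.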

How the results depend on the processing

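Over the log2 fold changes of named Hox genes, 181 values under other settings kept their direction and their side of the threshold, 8 gained a call, 13 lost one and 1 changed sign; on leaving out 1 library these numbers were 715, 19, 25 and 1. The sign changed for Hoxa5 between cell types with TGF-β2, from 0.21 to −0.032, both without the shallow libraries and without ES-motor neuron TGF-β2 replicate A, which are the same fit; leaving out 1 library gave −0.032 to 0.44. Of the 11 Hox genes called over all treatments, 9 were called in every fit that left out 1 library and 8 under every other setting. For the other lists, the number of genes called was the same or within 1.5 times in 587 cases and outside that in 57. Leaving out 1 library gave 10 to 13 Hox genes called over all treatments. Within treatments it gave 0 to 2 in control, 0 to 2 with IL-1α and TNF-α, 1 to 4 with C1q and C5, 0 to 1 with IL-1β and IL-6, and 0 to 2 with TGF-β2. For TGF-β2 against control in ES-motor neurons it gave 0 to 2, and in each other comparison with control and in the interaction 0 to 0.

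The counts of called Hox genes that moved by over 1.5 times were these; the cause was not tested. DESeq2 called 4 between cell types in control, 3 with IL-1α and TNF-α, 4 with C1q and C5 and 2 with IL-1β and IL-6; against control it called 1 in ES-astrocytes with IL-1β and IL-6, 3 in ES-astrocytes with TGF-β2 and 3 in ES-motor neurons with TGF-β2. With no filter on low counts, 3 were called between cell types with IL-1α and TNF-α, 5 with C1q and C5 and 1 with TGF-β2, and 3 in ES-motor neurons with TGF-β2 against control. With all 40 libraries in 1 fit, 5 were called between cell types in control, 5 with C1q and C5, 2 with IL-1β and IL-6 and 0 with TGF-β2. Without the shallow libraries, 0 were called between cell types with IL-1β and IL-6, 1 with TGF-β2, and 0 in ES-motor neurons with TGF-β2 against control; within plate 2, a comparison chosen after seeing the data, 0 were called without them. In comparisons where IL-1α and TNF-α libraries of ES-motor neurons enter as a group of their own this setting had no value, since all 4 are shallow. RLE scaling moved no such count by over 1.5 times.

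Correlations between libraries of the same letter ran from −0.36 to 0.33, and in no comparison were all above 0.1, so no pairing by letter was seen. With shallow libraries among them, low correlations cannot show that the libraries were unpaired. With the replicate block, 11 Hox genes were called over all treatments and 11 with a block for each treatment and letter. Between cell types the block gave 0 with IL-1α and TNF-α, 0 with IL-1β and IL-6 and 1 with TGF-β2, and in ES-motor neurons with TGF-β2 against control 2. Under the block the log2 fold change between cell types over all treatments was −3.37 for Hoxc5 and −0.42 for Hoxd8. The planned fit with plate as a term was not run, because plate cannot be estimated beside treatment. RLE scaling and DESeq2 shifted the median of all genes by at most 0.07 on the log2 scale, apart from cell types with C1q and C5, where the shifts were −0.21 and −0.18. Depth limits what can be said of ES-motor neurons, where 3 counts were worth up to 202 CPM.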
